A study of Mus musculus with 2 samples.

Results

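The 31 genes described here encode enzymes and regulators of cholesterol and fatty acid synthesis, and were taken by symbol from the 40879 gene symbols counted in the intestine of ERAP1 wild-type (WT) and ERAP1+/- mice. Every one of the 31 symbols had a row in both count tables. ERAP1 is an aminopeptidase of the endoplasmic reticulum that trims peptides for antigen presentation. The ERAP1+/- mice carried 1 mutant allele, derived from a targeted tm1a allele by a cross with a Cre-expressing strain that the methods do not name, and both genotypes were on the C57BL/6 background. The mice were young adults when the study began, and the labels of these 2 libraries give genotype and tissue and name no treatment. Equal amounts of RNA from several mice were pooled for each genotype, so that each genotype was 1 library, called a pool here, and the values below have no replicate.

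Cells build cholesterol from acetyl-CoA through mevalonate, isoprenoids, squalene and a series of sterol ring intermediates, and build fatty acids from the same acetyl-CoA. SREBP transcription factors, encoded by Srebf1 and Srebf2, switch on both routes. They are held in the endoplasmic reticulum by Scap and the Insig proteins when sterols are plentiful, and are released when sterols run low. In the intestine the epithelium renews itself constantly and needs membrane lipid, while sebaceous glands of the skin and adipocytes are tissues known for high fatty acid synthesis.

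The libraries were made with a method that reads the 3' ends of polyadenylated transcripts, and held 8114826 (WT) and 8907515 (ERAP1+/-) counted reads. Counts were scaled with TMM, the trimmed mean of M values, and values are given in CPM, which brings both libraries to the same depth, or as log2(CPM + 1). A transcript gives about 1 fragment by this method, so counts were not divided by gene length. Ratios carry exact conditional binomial 95% intervals, which cover counting error only and not the variation between mice. Erap1 itself had 229 reads in the WT pool and 2 in the ERAP1+/- pool, 0.730% of the WT level (95% interval 0.0878% to 2.67%). This is far less than the intact allele of a heterozygote would leave, so the level of Erap1 goes against the label, and "ERAP1+/- pool" stands throughout for the library that carries this label. The reads come from the 3' end of the gene, outside the exons removed by Cre, and do not check the deletion itself. The epithelial markers of the labelled tissue were present, with all 15 of 15 detected in both libraries and a summed level of 15516 CPM in WT and 11449 CPM in ERAP1+/-. Markers of skin and skeletal muscle were also present in the WT pool, at 3380 CPM over 10 epidermal genes and 1128 CPM over 13 skeletal muscle genes, against 21.8 and 24.3 CPM in the ERAP1+/- pool. Ivl and Dsc1 of the epidermal list and Atp2a1 of the muscle list had no read in the ERAP1+/- pool. Xist, expressed from the inactive X chromosome, had 1635 and 6451 reads, and the Y-linked Ddx3y had 319 and 29. The Y-linked Eif2s3y, Kdm5d and Uty had 111, 72 and 110 reads in the WT pool and 1, 5 and 11 in the ERAP1+/- pool. The libraries thus differed in sex-linked genes as well as in genotype, and effects of sex and of genotype cannot be separated here. In bulk tissue, fewer cells of a type and less RNA per cell cannot be told apart.

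Promoter sequences show what the synthesis genes share ahead of their levels. The RefSeq promoter table for GRCm38.p6 holds windows of 300 bases, from 250 before to 50 after a start, for 27 of the 31 genes, with 36 windows in all. Both strands were searched for the core of the sterol response element bound by SREBP (TCACNCCAC), the E-box (CACGTG), the NF-Y box (CCAAT) and the GC box (GGGCGG). None of these words contains another. The NF-Y box, bound by a factor that works beside SREBP, was in 24 of the 36 windows (66.7%), against 37.4% of all 32851 windows in the table. The GC box was in 27 (75.0%), against 35.7% of all windows, the E-box in 6 (16.7%), against 7.15%, and the exact core of the sterol response element in 1 (2.78%), against 1.24%. A match is a description of letters and not a site that was shown to be bound. Below are the windows of Hmgcs1, the member with the most reads, whose window held the 1 match to the sterol response element core, of Hsd17b7 and Me1, the members more than 2-fold lower in the ERAP1+/- pool, and of Acss2, the member with the largest difference in the other direction. Capitals mark matches to any of the 4 words on either strand, and each sequence runs 5′ to 3′ on the strand of its gene.
Hmgcs1 (chr13:119690101-119690400, plus strand): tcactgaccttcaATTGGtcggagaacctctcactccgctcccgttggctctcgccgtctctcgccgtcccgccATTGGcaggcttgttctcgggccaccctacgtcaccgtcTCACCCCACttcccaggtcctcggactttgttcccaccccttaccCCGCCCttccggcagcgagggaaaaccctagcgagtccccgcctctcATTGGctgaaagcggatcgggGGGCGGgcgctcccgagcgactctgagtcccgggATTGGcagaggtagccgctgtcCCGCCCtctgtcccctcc
Hsd17b7 (chr1:169969156-169969455, minus strand): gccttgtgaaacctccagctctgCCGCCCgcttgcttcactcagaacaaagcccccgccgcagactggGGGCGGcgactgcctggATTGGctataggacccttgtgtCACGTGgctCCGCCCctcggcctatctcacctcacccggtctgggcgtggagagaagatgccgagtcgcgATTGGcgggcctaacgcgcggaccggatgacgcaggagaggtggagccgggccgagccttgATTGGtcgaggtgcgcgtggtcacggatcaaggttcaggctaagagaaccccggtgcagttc
Me1 (chr9:86695865-86696164, minus strand): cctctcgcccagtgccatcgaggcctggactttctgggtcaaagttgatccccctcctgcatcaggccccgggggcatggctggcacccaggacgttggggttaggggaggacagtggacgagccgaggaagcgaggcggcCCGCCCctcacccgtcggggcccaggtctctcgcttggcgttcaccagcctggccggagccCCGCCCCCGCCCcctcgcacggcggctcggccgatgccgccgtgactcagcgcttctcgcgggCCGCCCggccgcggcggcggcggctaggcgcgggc
Acss2 (chr2:155517793-155518092, plus strand): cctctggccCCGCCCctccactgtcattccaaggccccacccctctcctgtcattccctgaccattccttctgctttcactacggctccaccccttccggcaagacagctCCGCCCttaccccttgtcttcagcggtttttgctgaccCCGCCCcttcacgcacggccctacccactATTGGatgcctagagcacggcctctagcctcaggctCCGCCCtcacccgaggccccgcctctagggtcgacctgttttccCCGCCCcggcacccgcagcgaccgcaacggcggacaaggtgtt

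In the ERAP1+/- pool the synthesis genes as a group were close to their WT level. The 31 genes had 17719 reads (0.218% of all) in the WT pool and 18759 (0.211%) in the ERAP1+/- pool, and their summed level was 2280 and 2017 CPM, a ratio of 0.884 (95% interval 0.866 to 0.903). The median log2 difference was -0.18 over the 31 genes. Over the 8013 genes that reached a log2(CPM + 1) of 4 in 1 library or both it was -0.03. On this scale 24 of the 31 differed by less than 1.5-fold, and the share of all genes that did so was not counted. Taken without direction, the median difference was 0.28 for the 31 genes and 0.25 for the 8013. The members were thus no closer to their WT level than genes in general. Of the 31, 27 reached a log2(CPM + 1) of 4 and 4 did not (Idi1, Lss, Tm7sf2 and Insig1).

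Among the 27 genes past the level, 2 differed by more than 2-fold on the log2(CPM + 1) scale, which is 7.41%, and 5.34% of all 8013 genes did so. Both were lower in the ERAP1+/- pool, where 3.96% of all genes were lower by that much and 1.39% were higher, and no member was more than 2-fold higher. A number of 2 among 27 is near this background. Just inside the threshold stood Me1 (log2 difference -1.03), and just outside it Acss2 (0.88). With scaling by the total count in place of TMM no member passed 2-fold, with Hsd17b7 at -0.99, Me1 at -0.91 and Acss2 at 1.00, so the calls rest on the scaling. With the total count, 414 of all 8043 genes past the level passed 2-fold. Values from here on are under TMM unless another scaling is named. Of the 27, 20 were below 0 under TMM (74.1%), against 52.7% of all genes. Over all 31 the number below 0 was 22 under TMM, 21 with the total count and 10 with scaling on epithelial markers. All genes past the level moved as well, to a median of 0.10 with the total count and 0.29 with the epithelial markers. The medians of the 31 genes were then -0.06 and 0.13. The counting interval of the ratio lay below 1 for 13 of the 27 (48.1%) and above 1 for 3 (11.1%), against 32.4% and 25.5% of all genes.

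**Figure D1:**
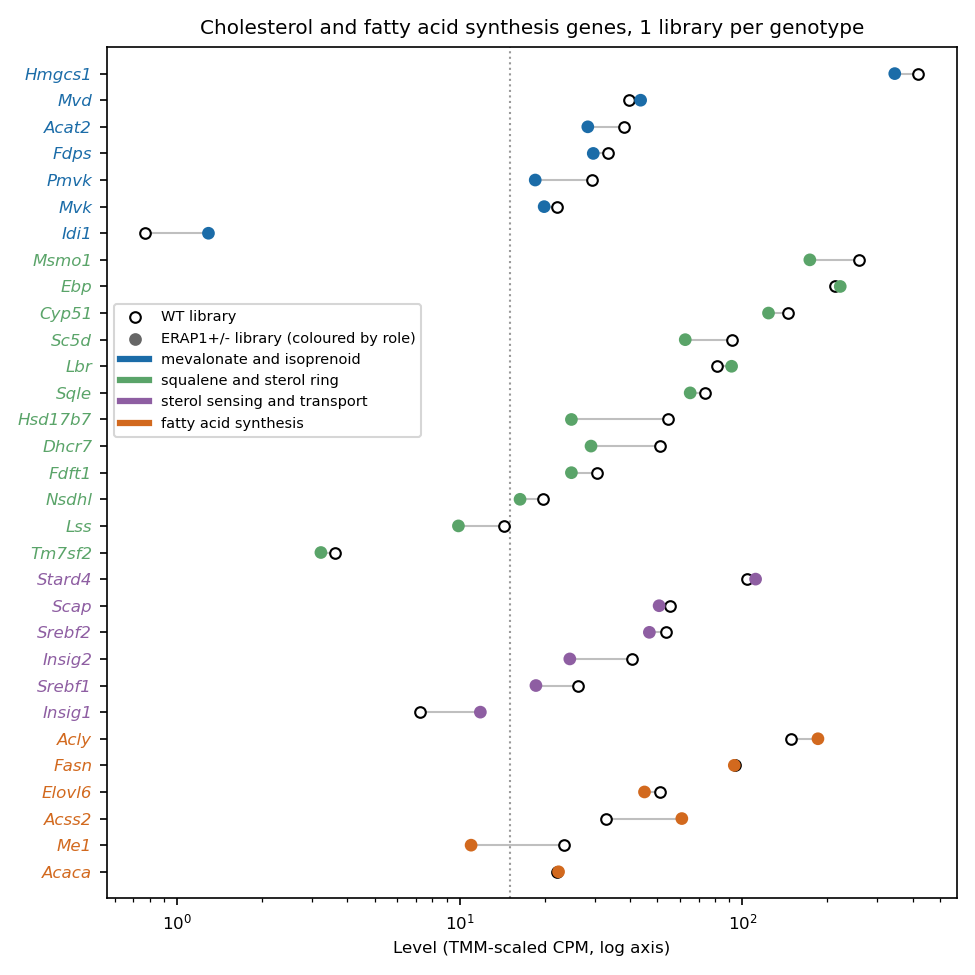
Level of each of the 31 genes in TMM-scaled CPM on a log axis, in the WT pool (open circles) and the ERAP1+/- pool (filled circles, coloured by role), 1 library each. The dotted line marks a log2(CPM + 1) of 4. Most pairs lie close together, and the widest gaps among genes right of the line are those of Hsd17b7, Me1 and Acss2.

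The mevalonate and isoprenoid enzymes, 7 in number, had a median log2 difference of -0.17, and none passed 2-fold. Hmgcs1, which makes HMG-CoA, was the most abundant of the 31 genes, with 3260 reads (420 CPM) in the WT pool and 3220 reads (346 CPM) in the ERAP1+/- pool. It was 1.21-fold lower (95% interval 1.15 to 1.27), and it held 25.9% of the summed level of the 19 sterol pathway enzymes in both libraries. Its log2 difference was -0.28 under TMM, -0.15 with the total count and 0.05 when scaled on epithelial markers. The thiolase Acat2, which joins acetyl-CoA units, had 295 and 264 reads and was 1.34-fold lower (95% interval 1.13 to 1.59). Among the genes of this group past the level, the largest difference was that of Pmvk, phosphomevalonate kinase, with 228 and 172 reads, 1.59-fold lower (95% interval 1.30 to 1.95). For the mevalonate kinase Mvk (172 and 185 reads), the decarboxylase Mvd (308 and 406) and the farnesyl diphosphate synthase Fdps (260 and 276), the interval of the ratio included 1. Idi1, the isomerase between them, had 6 and 12 reads, at a depth that leaves its ratio between 0.580 and 5.43.

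Of the enzymes from squalene to cholesterol, 10 of 12 were lower in the ERAP1+/- pool under TMM and the total count and 5 of 12 when scaled on epithelial markers, with a median log2 difference of -0.27 and summed levels of 1038 CPM in WT and 847 CPM in ERAP1+/-. Hsd17b7, a keto reductase that works with Msmo1 and Nsdhl to strip methyl groups from the sterol ring, is on chromosome 1 of GRCm38, minus strand, between 169949535 and 169969241. It had 425 reads (54.7 CPM) in the WT pool and 231 reads (24.8 CPM) in the ERAP1+/- pool and was 2.20-fold lower (95% interval 1.87 to 2.60). Its partners were nearer to their WT level: Msmo1, the methyl oxidase of the complex, had 2004 and 1612 reads and was 1.49-fold lower (95% interval 1.39 to 1.59). The decarboxylating dehydrogenase Nsdhl had 153 and 152 reads, with an interval that included 1 (0.659 to 1.05).

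Near the end of the ring pathway, Dhcr7, the reductase whose product is cholesterol itself, had 398 reads (51.2 CPM) and 271 reads (29.1 CPM), which made a ratio of 0.569 (95% interval 0.486 to 0.665). Sc5d, the desaturase that acts just before it, had 716 and 584 reads and was 1.47-fold lower (95% interval 1.31 to 1.64). The isomerase Ebp was at a like level in both libraries, with 1657 and 2065 reads (213 and 222 CPM) and a ratio between 0.975 and 1.11. Ebp and Nsdhl lie on the X chromosome, and the libraries differed in Xist as given above. Whether this plays a part in their values was not tested.

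At the head of this branch, Fdft1, which joins farnesyl units to squalene (237 and 231 reads), Sqle, the epoxidase (575 and 608), and Cyp51, the lanosterol demethylase (1130 and 1151), were lower by between 1.13-fold and 1.23-fold, each with an interval that left out 1. The cyclase Lss had 111 and 92 reads and was 1.44-fold lower (95% interval 1.09 to 1.93). Lbr and Tm7sf2 reduce the same bond of the sterol ring, and Lbr is also the lamin B receptor of the nuclear envelope. The counts of Lbr were 634 and 852, at a ratio of 1.12 (95% interval 1.01 to 1.25), and Tm7sf2 had only 28 and 30. In GENCODE M21 the last 500 bases of Cyp51, Fdft1, Lbr and Srebf1 overlap an exon of a gene on the other strand, and whether the counting used strand is not stated, so reads of these genes may include some of their neighbor's. The end of Fdps overlaps an exon of Gm43738 on the same strand. Gm43738 has no row in these counts, so no Fdps reads were counted under that symbol.

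**Figure D2:**
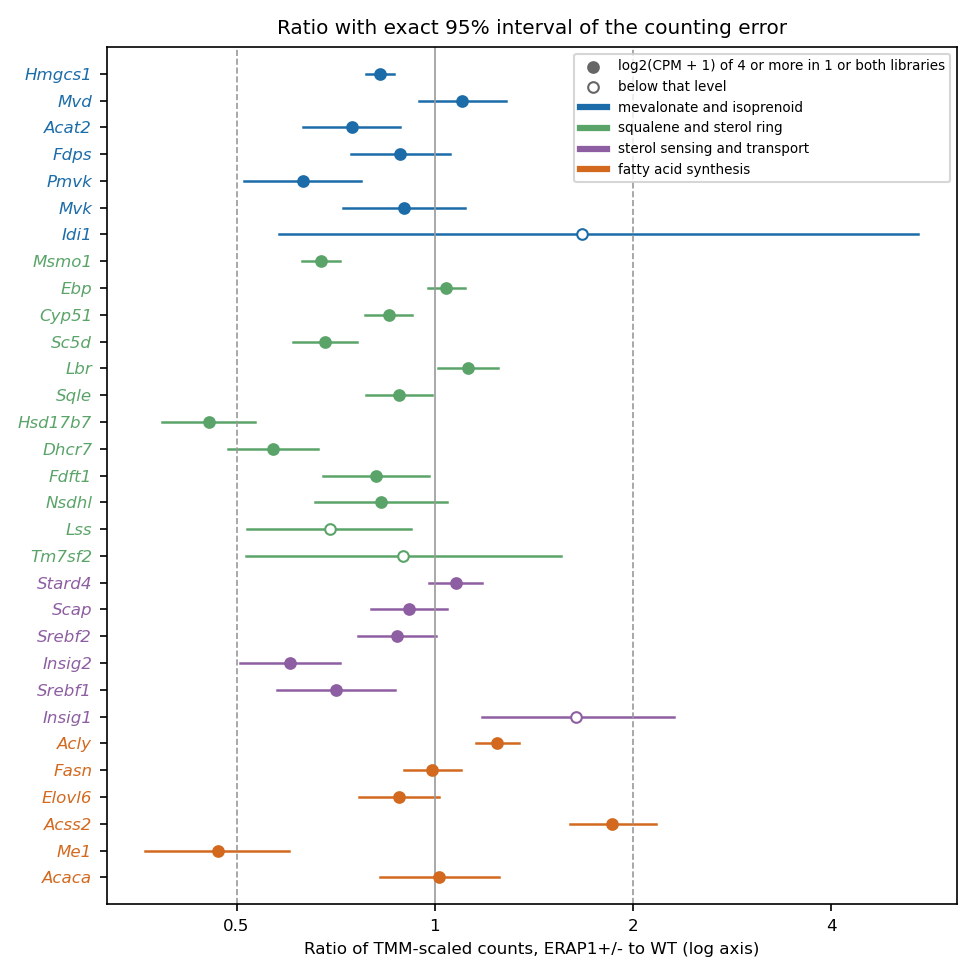
Ratio of TMM-scaled counts in the ERAP1+/- pool to the WT pool for each of the 31 genes on a log axis, with exact 95% intervals of the counting error as bars and dashed lines at 2-fold. Filled circles reached a log2 value of 4 and open circles did not. Hsd17b7 and Me1 lie beyond the lower dashed line, and most sterol enzymes lie between 0.5 and 1.

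The 6 sensors and regulators of the pathway had a median log2 difference of -0.16, with none past 2-fold. Srebf2, whose factor mainly drives the cholesterol genes, had 416 reads (53.5 CPM) in the WT pool and 436 reads (46.9 CPM) in the ERAP1+/- pool, and Scap, its escort to the Golgi, had 432 and 472 reads. The interval of the ratio included 1 for both. Srebf1, whose factor mainly drives the fatty acid genes, had 204 and 173 reads and was 1.41-fold lower (95% interval 1.15 to 1.74). The cholesterol carrier Stard4 had 804 and 1036 reads, with an interval from 0.981 to 1.18.

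The genes of the Insig proteins lay on opposite sides of their WT level. Insig1, itself a target of SREBP and a brake on it, had 56 reads (7.21 CPM) in the WT pool and 110 reads (11.8 CPM) in the ERAP1+/- pool, a ratio of 1.64 (95% interval 1.18 to 2.31), below the level of 4 in both. Insig2, its paralog, had 316 reads (40.7 CPM) and 228 reads (24.5 CPM) and was 1.66-fold lower (95% interval 1.39 to 1.98). Insig1 reads per Insig2 read were 0.177 in the WT pool and 0.482 in the ERAP1+/- pool. This ratio does not depend on how the libraries are scaled, and it was 2.72 times as high in the ERAP1+/- pool (95% interval 1.86 to 3.99).

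The 6 genes of fatty acid synthesis had a summed level of 372 CPM in the WT pool and 418 CPM in the ERAP1+/- pool, a ratio of 1.12 (95% interval 1.07 to 1.18), and their single values spread widely around 0. Fasn, the synthase that builds palmitate, was nearly level, with 734 reads (94.5 CPM) and 871 reads (93.6 CPM) and a ratio between 0.897 and 1.09. Acaca, which makes the malonyl-CoA it uses, had 171 and 208 reads (22.0 and 22.4 CPM), and the elongase Elovl6 had 397 and 419 reads, with intervals that included 1. Under TMM no difference in these 3 genes was detectable at this depth. When scaled on epithelial markers, Fasn, Acaca and Elovl6 had log2 differences of 0.31, 0.33 and 0.14. Each lay outside its counting interval under TMM, so this result rests on the scaling.

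The suppliers of the route differed from each other. Acss2, which makes acetyl-CoA from acetate, is on chromosome 2 of GRCm38, plus strand, between 155517948 and 155585724. It had 255 reads (32.8 CPM) in the WT pool and 568 reads (61.1 CPM) in the ERAP1+/- pool, a ratio of 1.86 (95% interval 1.60 to 2.17). Acly, which makes acetyl-CoA from citrate, had 1155 reads (149 CPM) and 1722 reads (185 CPM), a ratio of 1.25 (95% interval 1.16 to 1.34). Me1, the malic enzyme that supplies NADPH, is on chromosome 9, minus strand, between 86581371 and 86695953. It went the other way, with 182 reads (23.4 CPM) and 102 reads (11.0 CPM), 2.14-fold lower (95% interval 1.67 to 2.75).

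Ratios of gene to gene within a library are free of the scaling, and 7 pairs of genes with related roles were compared in this way, chosen after the values were seen. Besides the Insig pair, Acss2 per Acly was 0.221 in WT and 0.330 in ERAP1+/- (ratio of the ratios 1.49, 95% interval 1.26 to 1.77), and Me1 per Fasn was lower at 0.117 against 0.248 (0.472, 95% interval 0.360 to 0.618). For Hsd17b7 per Nsdhl the values were 2.78 in WT and 1.52 in ERAP1+/- (0.547, 95% interval 0.411 to 0.728). Msmo1, the other partner of Hsd17b7, was itself 1.49-fold lower under TMM and was not used in a pair. The interval included 1 for Srebf1 per Srebf2 (0.809, 95% interval 0.630 to 1.04) and for Tm7sf2 per Lbr (0.797, 95% interval 0.455 to 1.40). Summed over genes, fatty acid synthesis reads per sterol pathway read were 0.230 in the WT pool and 0.313 in the ERAP1+/- pool, 1.36 times as high (95% interval 1.29 to 1.44). Of these fatty acid genes, only Acly (1155 and 1722 reads) and Acss2 (255 and 568) had an interval above 1. Both make acetyl-CoA, which the sterol route also uses. Me1 was lower (182 and 102 reads), and for Fasn, Acaca and Elovl6 the interval included 1. These intervals, too, hold counting error alone.

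The scaling decided on which side of 0 the group lay. When the libraries were scaled so that the 15 epithelial markers had a median difference of 0, the median of all 8013 genes moved up by 0.316 on the log2 scale, and that of the 31 genes became 0.13. These markers did not move together: under TMM 11 were lower and 4 higher, from -1.20 (Krt20) to 0.69 (Cdx2). Whether the skin material of the WT pool plays a part in their values was not tested. The number of sterol pathway enzymes that were lower was 15 of 19 under TMM and with the total count, and 7 of 19 with the epithelial scaling. Of the 6 fatty acid synthesis genes, 3 were lower under TMM, 2 with the total count and 1 with the epithelial scaling. A scaling shifts all genes by nearly the same amount, so the order of the medians of the roles is not a separate result of each scaling. Under TMM the medians of the squalene and sterol ring enzymes and of the fatty acid genes were -0.27 and 0, against -0.03 for all genes.

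**Figure D3:**
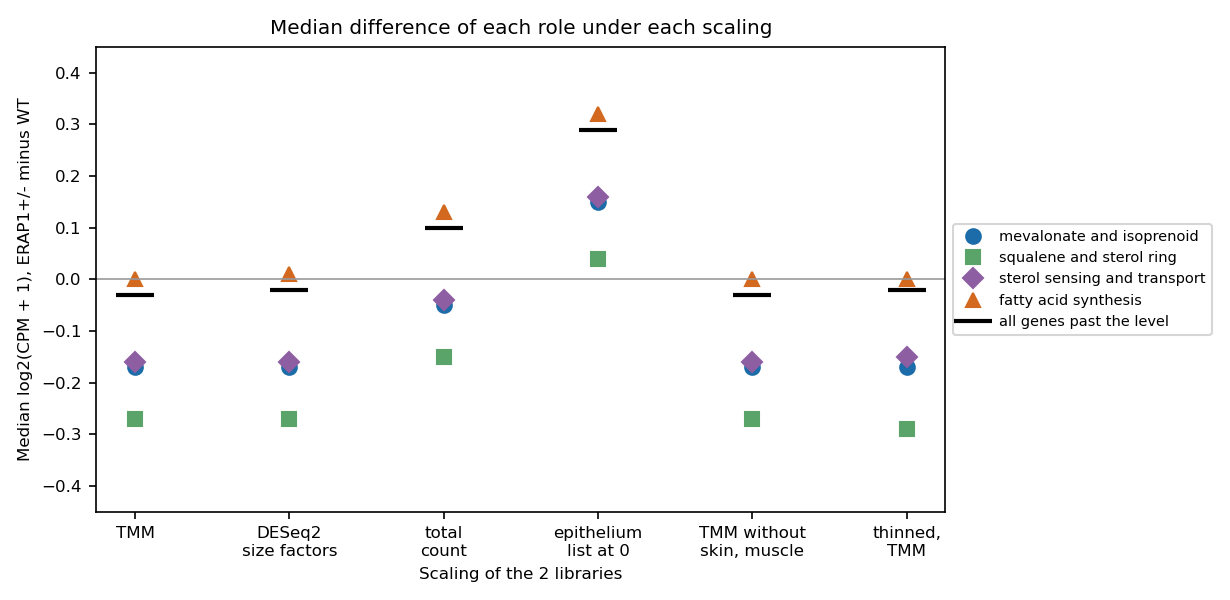
Median difference in log2(CPM + 1), ERAP1+/- minus WT, of each role (coloured symbols) and of all genes past the level (black bars) under each scaling of the 2 libraries. All symbols and bars shift together with the scaling, by nearly the same amount: the squalene and sterol ring enzymes run from -0.29 to 0.04 and the fatty acid genes from 0 to 0.32.

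Outside the 31 genes, 73 further genes of lipid metabolism in 6 lists had 53 members past the level, of which 5 were more than 2-fold lower and none higher, where 3.96% of all 8013 genes were lower and 1.39% higher by that much. Por, which passes electrons to Cyp51 and other cytochrome P450 enzymes and had the most reads of the list of other sterol and isoprenoid enzymes over both libraries (1432 and 1065), was 1.61-fold lower (95% interval 1.49 to 1.74). The mitochondrial thiolase Acat1, close behind with 875 and 1560 reads, went the other way (ratio 1.49, 95% interval 1.37 to 1.62).

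Genes that process SREBP or sense lipids (12 in number) had a median log2 difference of 0.08, with none past 2-fold. The protease Mbtps1, which makes the first cut in SREBP, had the most reads of them, 762 and 1160 (ratio 1.27, 95% interval 1.16 to 1.40). Among 15 genes of sterol uptake, efflux and storage, the median was -0.39 over the 14 genes with at least 10 reads, and Abcg5 was the one called. Abcg5 and Abcg8 form a pump that exports sterols, and Abcg5 had 180 reads in the WT pool and 82 in the ERAP1+/- pool, 2.63-fold lower (95% interval 2.01 to 3.46). Abcg8, under the level of 4, had 69 and 6 reads. Npc2, a lysosomal cholesterol carrier and the most abundant gene of this list, had 3788 and 4062 reads and was 1.12-fold lower.

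The largest differences in lipid genes were in desaturation and elongation, where 3 of 14 genes past the level were more than 2-fold lower (3.96% of all genes). Scd3, a desaturase of sebaceous glands, had 881 reads in the WT pool and 1 in the ERAP1+/- pool, a ratio of 0.000948 (95% interval 2.40e-05 to 0.00530). Elovl4, an elongase of very long fatty acids used in the skin barrier, had 677 and 9 reads and was 90.1-fold lower (95% interval 47.2 to 198). Scd1, which is made in many tissues, had 1405 reads (181 CPM) and 459 reads (49.3 CPM) and was 3.66-fold lower (95% interval 3.30 to 4.08). Its paralog Scd2, the most abundant of the list, had 1994 and 2093 reads, a scaled ratio of 0.877 (95% interval 0.824 to 0.933), and Scd1 per Scd2 was 0.705 in WT and 0.219 in ERAP1+/-. The Scd genes are similar in sequence, and whether this divided reads between them was not tested.

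Markers of other cell types, among them types that make or store lipid, also differed between the libraries. All 9 of 9 sebaceous gland markers were lower in the ERAP1+/- pool, with a summed level of 285 CPM in WT and 5.37 CPM in ERAP1+/-, and Awat1, Dgat2l6 and Elovl3 had no read there. Scd3 and Elovl3 are in this list as well as in the desaturation and elongation list, whose median was -0.31 over 18 genes with enough reads, also with the genes at 0 set at 3 reads, and -0.24 over 16 without them. Adipocyte markers went the other way in 6 of 9 genes, with a summed level of 124 CPM in WT and 209 CPM in ERAP1+/- and no marker at 0. The most abundant of them were Fabp4 (56.0 and 95.4 CPM) and Cfd (21.0 and 60.0 CPM). The interval of the ratio lay above 1 for 4 of the 9 and below 1 for 2, Retn (61 and 30 reads) and Plin4 (141 and 128). Smooth muscle markers were lower in 8 of 8 genes (9053 and 4712 CPM), and plasma cell markers were higher in 5 of 5 (315 and 1897 CPM). Fasn, Acaca and Elovl6, which sebocytes and adipocytes also use, had ratios of 0.991, 1.02 and 0.882. The part that the makeup of the tissue or the sex of the mice plays in these values was not tested. The same holds for the differences of Me1, Acss2 and Hsd17b7.

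**Figure D4:**
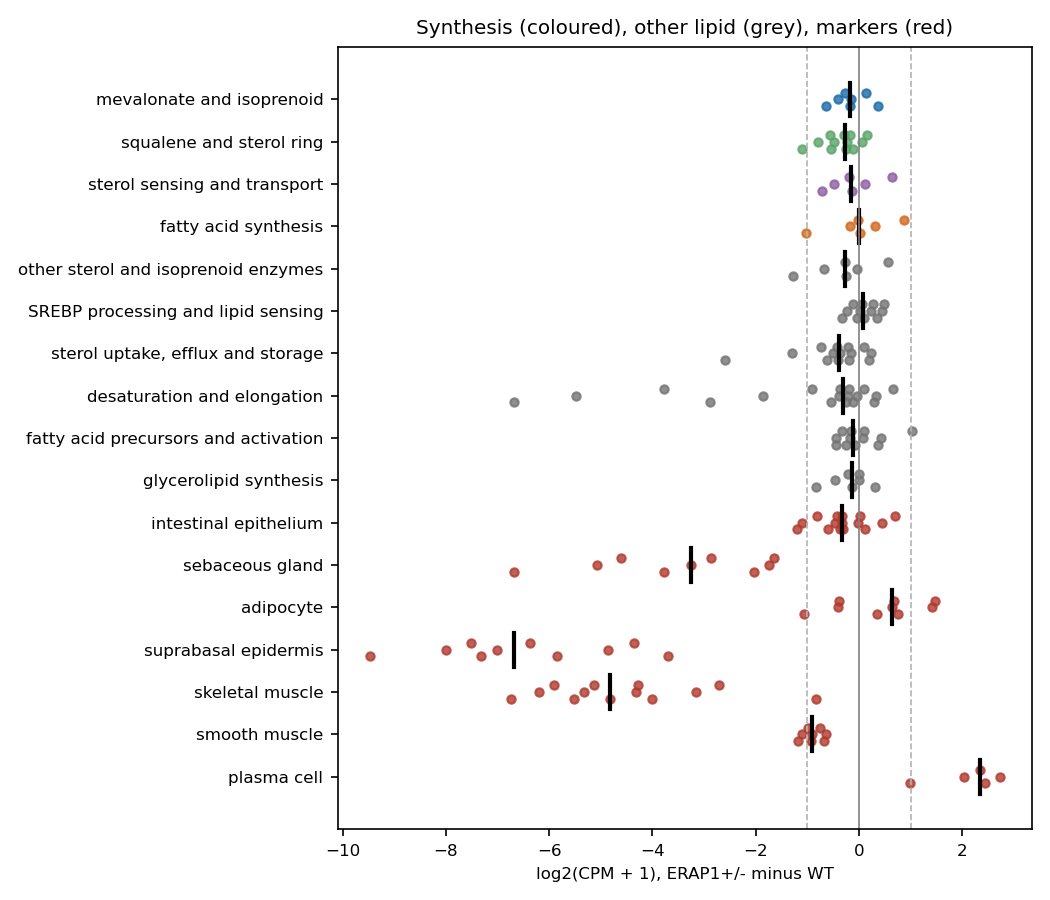
Difference in log2(CPM + 1), ERAP1+/- minus WT, of each gene with at least 10 reads over both libraries (points), by list, with the list median as a black bar and dashed lines at 2-fold. Synthesis genes lie between -1.11 and 0.88, and the sebaceous gland, suprabasal epidermis and skeletal muscle markers reach far to the left.

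The fatty acid precursor list (median -0.12 over 12 genes) and the glycerolipid list (median -0.13 over 7 genes with enough reads) had no gene past 2-fold above the level of 4. Acsl3, an enzyme that activates fatty acids, had the most reads of the precursor list, 3524 and 3367, and was 1.25-fold lower (95% interval 1.19 to 1.31). Plin2, a coat protein of lipid droplets, led the glycerolipid list with 895 and 1069 reads, or 115 CPM in both libraries.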

How the data were processed

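RNA from the intestine of WT and ERAP1+/- mice, pooled from several mice per genotype, was sequenced as 1 QuantSeq 3' library each. Per gene symbol, the authors deposited whole read counts, with no normalization. The methods name STAR with HTSeq in one place and Bowtie2 with RSEM on GRCm38 in another, and the submitters' notes name Bowtie2 and RSEM. Which of them made the deposited counts is not given in the sources used here.

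The depths of 8114826 (WT) and 8907515 (ERAP1+/-) reads were adjusted by TMM (edgeR 4.0.16, R 4.3.3) with factors of 0.958 and 1.04. They gave CPM and, with a pseudocount of 1 CPM, log2(CPM + 1). Called genes differed by over 2-fold on this scale and reached 4 in 1 library or both. With 1 library per genotype no test between genotypes can be fitted and no p-value is given. Ratios carry exact 95% intervals (scipy 1.17.1). Where no read was counted, 3 reads remain possible, which is 0.386 CPM in WT and 0.322 CPM in ERAP1+/-. List medians used genes with at least 10 reads over both libraries. The call rule and the counting intervals were tested on simulated counts that held counting error only, with the scaling taken from the real data. The scaling itself was not tested in this way.

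The members and lists were chosen with earlier results of these data known. All members are named. Of the other lists, the genes called and the gene with the most reads are named, except for items that are not reported here, and Abcg8, Acat1 and the marker genes were named after their values were seen. Positions are from GENCODE M21 (GRCm38) and promoters from RefSeq (GRCm38.p6), matched by symbol. Alternatives were other scalings, filters, thresholds and a pseudocount of 0.1.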

Additional observations from a re-analysis of the deposited data

How the results depend on the processing

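No paired analysis was possible because there was just 1 pooled library of either genotype, and no replicate could be left out. Scaling by the total count gave 0 members past 2-fold in place of 2, and summed ratios of 0.898 for the sterol pathway and 1.22 for fatty acid synthesis, in place of 0.823 and 1.12. With the epithelial markers at a median of 0, Acss2 was the 1 member past 2-fold, the median of the members was 0.13, and the summed ratios were 1.03 and 1.41. In that scaling 12 of the 31 members changed sign, and 1 did with the total count. Requiring a log2 value of at least 6 left 0 members past 2-fold, a 4-fold threshold 0, and a 1.5-fold threshold gave 6 (Pmvk, Hsd17b7, Dhcr7, Insig2, Acss2 and Me1). The share of all genes was not counted for these settings, so these numbers of members stand without a background. DESeq2 1.42.0 size factors, TMM without the skin and muscle lists, thinning to equal depth and a pseudocount of 0.1 each gave 2 members, kept all 31 within their counting intervals and changed no sign, and so did filters of at least 10 reads or none for the number of 2. Of all genes past the level, 414 of 8043 were past 2-fold with the total count and 503 of 8143 with the epithelial scaling. Over all genes, 74.1% of the genes past 2-fold were lower under TMM, 59.9% with the total count and 37.6% with the epithelial scaling. Depth limits Idi1, Tm7sf2 and Insig1 most.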
